A study of Mus musculus with 9 samples.

Results

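Transcripts of 34 genes of T cells and cytotoxic lymphocytes were followed in suprarenal abdominal aortas of mice, out of 18830 genes listed in the deposited count files. The genes were taken by name, through their Entrez Gene IDs, and all 34 were found. They comprise 4 chains of the T cell receptor complex, 3 coreceptor chains, 3 adhesion and tuning receptors, 4 proximal signalling proteins, 6 costimulatory and checkpoint molecules, 5 genes of naive cells and T lineage identity, 2 genes of regulatory cells, and 7 genes of cytotoxic and type 1 cells. Every mouse, the sham controls included, carried an ApoE knockout, which makes mice prone to atherosclerosis. The 9 RNA-seq libraries fall into 3 groups of 3: a sham control, angiotensin II (Ang II, a peptide hormone that raises blood pressure and gives aneurysms of this segment in such mice) at 1000 ng/kg/min from an osmotic pump for 14 days, and the same infusion for 28 days. The labels give neither age nor sex, nor the day on which sham aortas were taken, nor do they say whether aortas were pooled or which of them had an aneurysm. The libraries of a group are taken as separate animals without a label that states it, so p-values measure only the spread between these libraries.

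T cells recognise antigen through a receptor whose signal leaves the cell surface through the CD3 and zeta chains. The kinase Lck, held by the coreceptors CD4 and CD8, phosphorylates these chains, Zap70 docks on them, and the adaptor Lat spreads the signal. CD4 marks helper and regulatory cells and CD8 marks cytotoxic cells, which kill through perforin and granzymes, as natural killer cells do. T cells are known to gather in the adventitia of human and mouse aneurysms and in lymphoid aggregates beside atherosclerotic arteries.

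Libraries held between 9609690 and 14923936 expected counts, and the members together took between 0.00336% and 0.211% of them. Levels are given in CPM, which are counts brought to a common library total by edgeR's TMM factors, and 3 counts equal 0.204 to 0.328 CPM. The titles call the tissue muscle and the source field calls it aorta. Smooth muscle genes were abundant in each library, with a summed level of 7 genes between 2020 and 28067 CPM, lowest in 28-day library 3. Skeletal muscle genes summed to 13330 and 4438 CPM in 28-day libraries 1 and 2, to 91.8 CPM in 28-day library 3 and to at most 43.5 CPM in the other 6. Nerve genes summed to 1012 CPM or more in sham library 2, 14-day library 1 and 28-day libraries 2 and 3, and to at most 244 CPM elsewhere.

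T cell transcripts were sparse in sham aortas and more abundant in each Ang II aorta. The summed level of the 34 genes was 57.3, 42.0 and 36.8 CPM in sham libraries 1 to 3. It was 188, 287 and 2045 CPM in the 14-day libraries and 87.9, 733 and 291 CPM in the 28-day libraries. Each Ang II sum lay above each sham sum, and within each Ang II group 1 library stood far above the others: library 3 at 14 days and library 2 at 28 days. For 30 of the 34 members 14-day library 3 was the highest of the 9, and for 29 members 28-day library 2 came second. All 34 members lay above every sham library in 14-day libraries 2 and 3 and in 28-day libraries 2 and 3, 32 did in 14-day library 1 and 27 in 28-day library 1. In these bulk samples a gain in T cells and a gain in RNA per cell cannot be told apart.

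**Figure D1:**
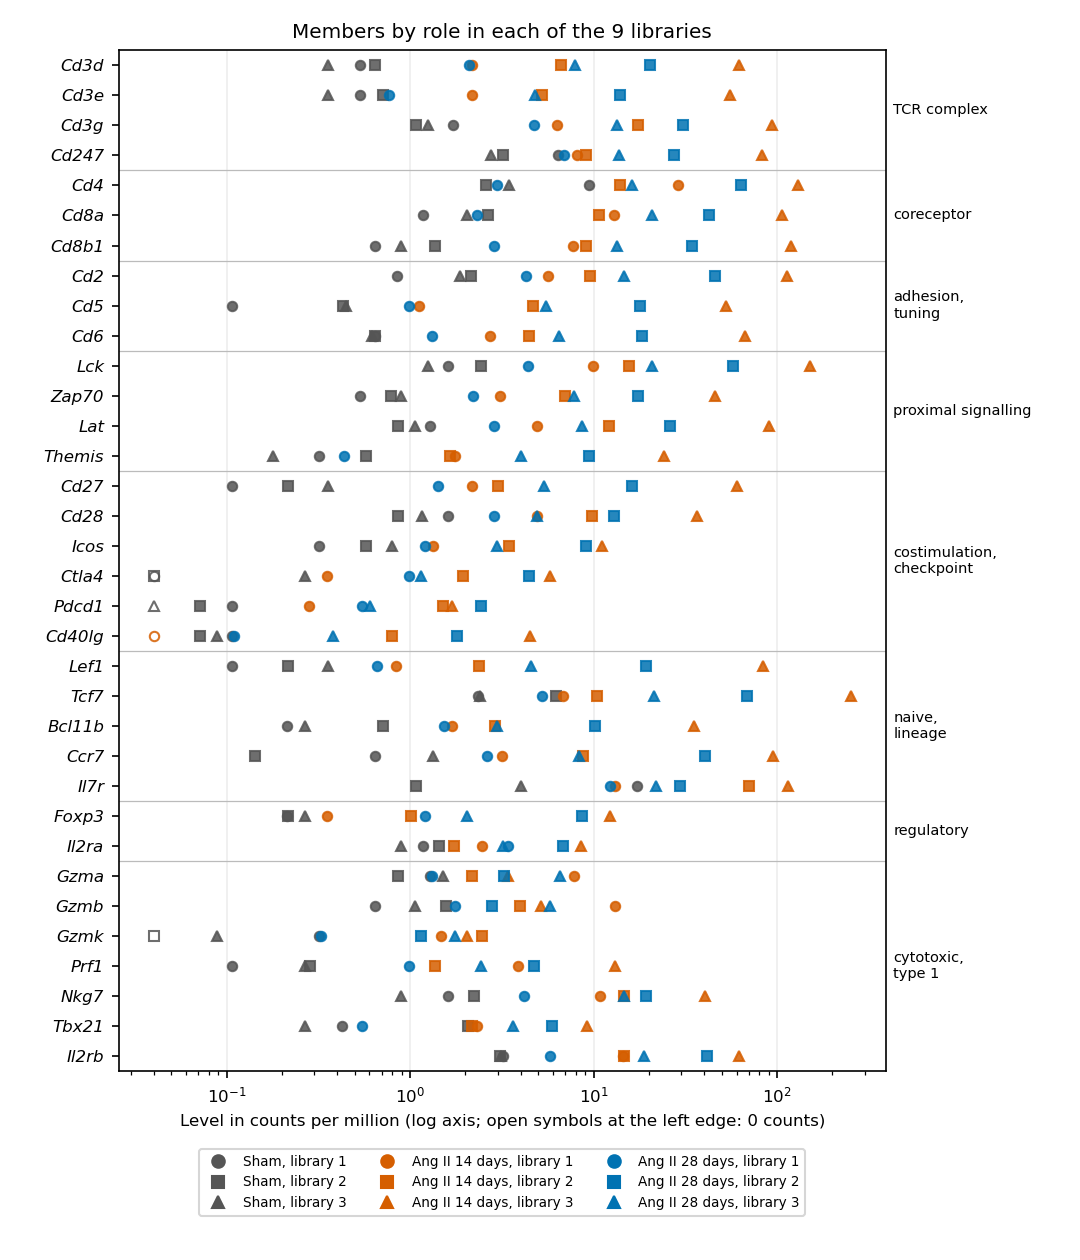
Level of each of the 34 members in CPM (log axis), with 1 symbol per library, coloured by group and shaped by library number, and members ordered by role. Sham libraries sit at the left of nearly every row; 14-day library 3 is the rightmost symbol for 30 members.

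At 14 days the lowest Ang II library lay above the highest sham library for 32 of the 34 members, the exceptions being Il7r and Cd40lg. Among all 18172 genes with a count, 11.1% were separated in that way. The low-count filter passed 33 members, all but Cd40lg, and for 14 of these no sham library reached the filter's level, so they entered through the Ang II libraries. Over the 33, the log2 fold change ran from 1.86 to 6.92 with a median of 4.63, against a median of -0.07 over the 14741 genes tested. Without 14-day library 3 the members' median was 2.75. edgeR's quasi-likelihood test, adjusted by the Benjamini-Hochberg method over those genes, called 0 members and 0% of the genes, with adjusted p from 0.117 to 0.253 for the members. Before adjustment 32 members and 13.1% of all genes were higher at p under 0.05. DESeq2, run as an alternative, called 30 members and 8.27% of the genes higher.

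At 28 days, 27 of the 34 members lay above sham without overlap, and 11.1% of all genes with a count did. The median log2 fold change of the 33 tested members was 3.56 (range 1.53 to 5.10; -0.08 over all genes tested), and 2.57 without 28-day library 2. edgeR called 0 members and 0% of genes, with adjusted p from 0.205 to 0.614. Before adjustment 28 members and 7.96% of genes were higher, and DESeq2 called 23 members and 4.03% of genes. Both comparisons use the same 3 sham libraries.

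The CD3 chains and the zeta chain carry the signal of the receptor. Cd3d was at 0.533, 0.644 and 0.356 CPM in the sham libraries, at 2.17, 6.63 and 62.0 CPM at 14 days and, after 28 days, at 2.08, 20.2 and 7.90 CPM (Entrez 12500, GRCm38.p6 chromosome 9, 44981769 to 44987052). Each Ang II library exceeded each sham library, and the highest library of an Ang II group was many times its lowest. Cd3d was 5.5 ± 1.46 (SE) log2 higher at 14 days and 4.27 ± 1.39 at 28 days (edgeR adjusted p = 0.117 and 0.244). Cd3e had 0.533, 0.715 and 0.356 CPM in sham, 2.17, 5.26 and 55.5 CPM at 14 days and, after 28 days, 0.766, 13.8 and 4.78 CPM. Its lowest 28-day library rested on 7 counts and lay just above the highest sham library, which had 10 counts at a greater depth. Cd3g was the most abundant of the 3 CD3 chains by counts, at 1.07 to 1.70 CPM in sham, 6.31, 17.5 and 93.8 CPM at 14 days and, after 28 days, 4.71, 30.6 and 13.4 CPM. The zeta chain gene Cd247, which natural killer cells use as well, differed from its partners: sham libraries already held 6.39, 3.22 and 2.76 CPM. Its levels were 8.13, 9.08 and 82.3 CPM at 14 days and, after 28 days, 6.90, 27.4 and 13.7 CPM, and its log2 differences of 3.01 ± 1.01 and 1.96 ± 0.98 were the smallest of the 4.

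Because Cd3d, Cd3g and Cd3e lie side by side on chromosome 9 and were highest in the same libraries, the sequence before their starts is shown. Cd3g and Cd3d are 1337 bases apart and point away from each other, and Cd3e follows 11682 bases further on. The stretches below are the 150 bases that end just outside each gene's outermost annotated start, from the RefSeq promoter table of GRCm38.p6, which holds 25 of the 34 members. They are chr9:44981619-44981768 on the plus strand, and chr9:44980432-44980581 and chr9:45009664-45009813 on the minus strand. Capitals mark matches on either strand to GGAAGT (an ETS core), TGTGGT (RUNX), CTTTGA (TCF/LEF), CAGGTG (E-box) or AGGTGTGA (T-box), families with known roles in T cell gene control. The last bases of CAGGTG can overlap the first of AGGTGTGA.
Cd3d: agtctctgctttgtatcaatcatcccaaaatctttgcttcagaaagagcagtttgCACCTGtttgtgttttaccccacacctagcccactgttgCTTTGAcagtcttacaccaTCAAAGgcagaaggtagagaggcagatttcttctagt
Cd3g: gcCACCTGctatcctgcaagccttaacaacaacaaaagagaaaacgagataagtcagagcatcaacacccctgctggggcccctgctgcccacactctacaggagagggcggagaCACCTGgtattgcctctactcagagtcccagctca
Cd3e: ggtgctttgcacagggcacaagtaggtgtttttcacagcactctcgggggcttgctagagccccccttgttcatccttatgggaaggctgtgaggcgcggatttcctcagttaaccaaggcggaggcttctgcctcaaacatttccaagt
Cd3d held a pair of facing TCF/LEF matches and an E-box match, Cd3g held E-box matches 148 and 35 bases before its start, and Cd3e had no match in this window. Over the full 300-base windows of the table, GGAAGT was found in 44.1% of the 34 windows of members and in 23.8% of all 32851 windows. CAGGTG was found in 44.1% and 20.2%, TGTGGT in 23.5% and 16.8%, CTTTGA in 23.5% and 16%, and AGGTGTGA in 2.94% and 1.28%. The NF-kB consensus was found in 5.88% of the windows of members and 8.46% of all. These are counts of letters, several members have more than 1 window, and no binding was measured.

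The coreceptors place a T cell in the helper or the cytotoxic class. Cd4 was at 9.38, 2.57 and 3.47 CPM in sham, 28.8, 14.0 and 129 CPM at 14 days and, after 28 days, 2.96, 63.3 and 16.2 CPM. All 14-day libraries exceeded sham, whereas 28-day library 1 lay below 2 of the 3 sham libraries. Cd8a had 1.17, 2.65 and 2.05 CPM in sham, 13.0, 10.7 and 106 CPM at 14 days and, after 28 days, 2.30, 42.6 and 20.7 CPM, and it overlapped with sham at 28 days through the same library. The second CD8 chain, Cd8b1, which is restricted to conventional cytotoxic T cells more tightly than Cd8a, had 0.639, 1.36 and 0.890 CPM in sham, 7.71, 9.08 and 119 CPM at 14 days and, after 28 days, 2.85, 34.2 and 13.4 CPM. It separated the groups at both times, with log2 differences of 5.52 ± 1.43 and 4.10 ± 1.35 (edgeR adjusted p = 0.117 and 0.249). Cd8a and Cd8b1 are neighbours on chromosome 6, 35934 bases apart. Cd4 is also made by some macrophages and dendritic cells, and the sham library with the most Cd4, library 1, also had the highest sham sum of 11 macrophage genes, 1945 CPM against 454 and 977 CPM. The Ang II libraries did not keep that order. At 14 days library 2 had the highest macrophage sum, 16135 CPM against 2811 and 2616 CPM, and the least Cd4, 14.0 CPM. After 28 days the macrophage sum was highest in library 3 and Cd4 in library 2. The part of such cells in the level of Cd4 was not tested.

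Counts of Cd8a as a share of Cd8a plus Cd4 showed no order between the groups. The share was 11.1% of 99 counts (95% exact binomial interval 5.68 to 19.0), 50.7% of 73 and 37.1% of 62 in sham. It was 31.0%, 43.4% and 45.0% at 14 days, the last over 3465 counts with an interval of 43.3 to 46.6. At 28 days it was 43.8%, 40.2% and 56.2%. The intervals cover counting error only, and the 2 libraries richest in T cell transcripts, at 45.0% and 40.2%, lay inside the range of the sham libraries.

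Of the adhesion and tuning receptors, Cd2 binds partner cells, and Cd5 and Cd6 restrain receptor signalling. Cd2 was at 0.852, 2.15 and 1.87 CPM in sham, 5.61, 9.51 and 114 CPM at 14 days and, after 28 days, 4.27, 45.8 and 14.7 CPM. Cd5 had 1, 6 and 5 counts in sham, which is 0.107, 0.429 and 0.445 CPM, and 1.12, 4.68 and 52.4 CPM at 14 days and, after 28 days, 0.985, 17.8 and 5.47 CPM. Cd6 was near even in sham, at 0.623 to 0.644 CPM, and reached 2.73, 4.47 and 66.4 CPM at 14 days and, after 28 days, 1.31, 18.3 and 6.45 CPM. All 3 genes separated Ang II from sham at both times. Their log2 differences at 14 days were 4.70 ± 1.40, 5.81 ± 1.72 and 5.25 ± 1.51. Cd5 is also carried by a subset of B cells, whose part in its level was not tested, and sums of B cell genes are given further on.

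The proximal signalling genes followed the CD3 chains. Lck had 1.60, 2.43 and 1.25 CPM in sham, 9.88, 15.6 and 152 CPM at 14 days and, after 28 days, 4.38, 57.3 and 20.7 CPM (Entrez 16818, chromosome 4, 129548344 to 129573641). Its log2 differences were 5.05 ± 1.36 and 3.95 ± 1.3, with no overlap at either time (edgeR adjusted p = 0.117 and 0.249). Zap70 had 0.533, 0.787 and 0.890 CPM in sham, 3.08, 6.99 and 45.8 CPM at 14 days and, after 28 days, 2.19, 17.3 and 7.82 CPM. Lat, the adaptor, ran from 0.858 to 1.28 CPM in sham, from 4.90 to 89.9 CPM at 14 days and, after 28 days, from 2.85 to 26.2 CPM. Both kept all Ang II libraries above sham. Themis, which tunes receptor signalling in developing T cells, was the lowest of the 4, with 2 to 8 counts per sham library. It had 1.75, 1.66 and 24.2 CPM at 14 days and, after 28 days, 0.438, 9.46 and 4.02 CPM, and 28-day library 1 lay below the sham library with the most, 0.572 CPM.

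Costimulatory receptors set whether a receptor signal activates a T cell, and checkpoints dampen it. Cd27 had 1, 3 and 4 counts in sham and had the second largest fitted log2 difference of all members, 6.51 ± 1.71 at 14 days, from levels of 2.17, 3.03 and 60.1 CPM. At 28 days it was at 1.42, 16.2 and 5.39 CPM. Cd28, the main costimulatory receptor of naive cells, had 1.60, 0.858 and 1.16 CPM in sham, 4.90, 9.80 and 36.5 CPM at 14 days and, after 28 days, 2.85, 12.9 and 4.94 CPM. Its range within the Ang II groups was narrower than that of the CD3 chains, and its log2 differences were 3.82 ± 0.90 and 2.52 ± 0.86. Icos, an inducible costimulator of activated and follicular helper cells, had 0.320, 0.572 and 0.801 CPM in sham, 1.33, 3.46 and 11.1 CPM at 14 days and, after 28 days, 1.20, 9.10 and 2.96 CPM. Cd28, Ctla4 and Icos form a cluster on chromosome 1, with gaps of 135665 and 44940 bases.

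The checkpoint genes and Cd40lg were near the limit of detection in sham, so no fold is given. Ctla4, an inhibitory rival of Cd28, had 0, 0 and 3 counts in sham, where a count of 0 allows up to 0.320 and 0.215 CPM. It had 0.350, 1.94 and 5.77 CPM at 14 days and, after 28 days, 0.985, 4.44 and 1.14 CPM. Pdcd1, which encodes PD-1, had 1, 1 and 0 counts in sham, 4, 21 and 25 counts at 14 days and 5, 34 and 8 counts at 28 days. It was the member whose highest level fell in 28-day library 2, at 2.44 CPM, against 1.70 CPM in 14-day library 3. Cd40lg, the helper signal to B cells and macrophages, had 1 count in each sham library, 0, 11 and 66 counts at 14 days, and 1, 25 and 5 at 28 days.

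The genes of naive cells and T lineage identity include the member with the largest fitted difference. Lef1, a transcription factor of naive T cells, had 0.107, 0.215 and 0.356 CPM in sham from 1, 3 and 4 counts. It had 0.841, 2.38 and 83.6 CPM at 14 days and, after 28 days, 0.657, 19.2 and 4.56 CPM. The groups did not overlap with sham, yet the 14-day libraries differed among themselves far more than 14-day libraries 1 and 2 differed from sham. Its fitted log2 difference at 14 days, 6.92 ± 2.16, was the largest of the members and had the largest SE (edgeR adjusted p = 0.133). Its partner Tcf7 was at 2.34, 6.22 and 2.4 CPM in sham, 6.80, 10.4 and 252 CPM at 14 days and, after 28 days, 5.25, 68.1 and 21.4 CPM. The 14-day minimum was close to the sham maximum, and at 28 days the groups overlapped. Ccr7, the receptor that guides naive T cells and mature dendritic cells into lymph nodes, had 0.639, 0.143 and 1.33 CPM in sham, 3.15, 8.72 and 94.4 CPM at 14 days and, after 28 days, 2.63, 40.5 and 8.35 CPM. Bcl11b, which fixes T lineage identity, ran from 0.213 to 0.715 CPM in sham, from 1.68 to 35 CPM at 14 days and, after 28 days, from 1.53 to 10.2 CPM.

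Il7r, the survival receptor of resting T cells, did not follow the others. Sham library 1 held 17.2 CPM, above 14-day library 1 at 13.0 CPM and 28-day library 1 at 12.3 CPM, while the other sham libraries held 1.07 and 4.00 CPM. The remaining Ang II libraries held 70.3 and 114 CPM at 14 days and, after 28 days, 29.7 and 21.9 CPM. Its groups overlapped at both times, with log2 differences of 3.16 ± 1.08 and 1.53 ± 1.02. In 14-day library 2, where Il7r was at 70.3 CPM beside 6.63 CPM of Cd3d, the macrophage genes summed to 16135 CPM, against 2616 to 4413 CPM in the other Ang II libraries. The part of macrophages in the level of Il7r was not tested.

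Regulatory T cells were followed through Foxp3, their lineage factor, and Il2ra, the interleukin 2 receptor alpha chain. Foxp3 had 2, 3 and 3 counts in sham, 5, 14 and 180 counts at 14 days, and 11, 120 and 27 counts at 28 days. As levels these were 0.213, 0.215 and 0.267 CPM, then 0.350, 1.01 and 12.2 CPM, then 1.20, 8.60 and 2.05 CPM. Each Ang II library lay above sham, and 28-day libraries 1 and 3 lay above 14-day libraries 1 and 2. Il2ra had 1.17, 1.43 and 0.890 CPM in sham, 2.45, 1.73 and 8.55 CPM at 14 days and, after 28 days, 3.39, 6.81 and 3.19 CPM. It separated the groups at both times with log2 differences of 1.86 ± 0.67 and 1.93 ± 0.67 (edgeR adjusted p = 0.157 and 0.260). At 14 days its difference was the smallest of the 33 tested members, with Gzma also at 1.86. At 28 days Il7r, Gzma, Gzmb and Tbx21 had smaller ones, from 1.53 to 1.85.

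The 3 granzyme genes had their highest level outside 14-day library 3, where 30 of the 34 members peaked. Gzmb, a granzyme that triggers death of the target cell, had 0.639, 1.57 and 1.07 CPM in sham, 13.1, 3.96 and 5.16 CPM at 14 days and, after 28 days, 1.75, 2.79 and 5.77 CPM (Entrez 14939, chromosome 14, 56258836 to 56262334). Its maximum was in 14-day library 1 and the next level in 28-day library 3, not in the libraries richest in T cell receptor transcripts. Gzma had the same order at the top: 7.78, 2.16 and 3.39 CPM at 14 days and, after 28 days, 1.31, 3.22 and 6.53 CPM, against 1.28, 0.858 and 1.51 CPM in sham. Gzmb did not overlap with sham at either time, with log2 differences of 2.74 ± 0.67 and 1.64 ± 0.65 (edgeR adjusted p = 0.117 and 0.318), and Gzma overlapped at 28 days. Gzmk, a granzyme of memory cells that lies 70648 bases from Gzma on chromosome 13, had 3, 0 and 1 counts in sham and its highest level in 14-day library 2, at 2.45 CPM, beside 1.47 and 2.04 CPM in the other 14-day libraries and 0.328, 1.15 and 1.75 CPM at 28 days.

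The other 4 cytotoxic and type 1 genes were highest in 14-day library 3 and next in 28-day library 2, as most members were. Prf1, which forms the pore that lets granzymes in, had 1, 4 and 3 counts in sham, and 3.85, 1.37 and 13.1 CPM at 14 days and, after 28 days, 0.985, 4.73 and 2.43 CPM. Its log2 differences were 4.71 ± 1.03 and 3.55 ± 1.00, without overlap (edgeR adjusted p = 0.117 and 0.217). Nkg7 had 1.60, 2.22 and 0.890 CPM in sham, 10.8, 14.7 and 40.2 CPM at 14 days and, after 28 days, 4.16, 19.2 and 14.6 CPM. Of the members it had the lowest adjusted p at 28 days, 0.205 by edgeR, with a log2 difference of 3.0 ± 0.73, and all 6 Ang II libraries lay above sham. Il2rb, shared by natural killer and memory T cells, was even in sham at 3.08 to 3.20 CPM, and reached 14.4, 14.7 and 61.7 CPM at 14 days and, after 28 days, 5.80, 41.4 and 18.8 CPM. Tbx21, the T-bet factor of type 1 cells, had 0.426, 2.07 and 0.267 CPM in sham, 2.31, 2.16 and 9.16 CPM at 14 days and, after 28 days, 0.547, 5.95 and 3.64 CPM. Sham library 2 nearly reached the 14-day minimum and lay above 28-day library 1, so Tbx21 overlapped with sham at 28 days, and Tbx21 was the member with the highest adjusted p at 14 days, 0.253 by edgeR.

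To set beside the CD3 genes, the same 150-base windows are shown for Lck and for 4 genes of killing. They are chr4:129573642-129573791, chr13:113100982-113101131 and chr14:56262335-56262484 on the minus strand and chr10:61297601-61297750 and chr7:43436988-43437137 on the plus strand, with capitals as above.
Lck: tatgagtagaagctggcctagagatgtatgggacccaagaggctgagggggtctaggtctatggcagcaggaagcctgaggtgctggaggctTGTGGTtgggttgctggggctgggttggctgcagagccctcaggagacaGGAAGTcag
Gzma: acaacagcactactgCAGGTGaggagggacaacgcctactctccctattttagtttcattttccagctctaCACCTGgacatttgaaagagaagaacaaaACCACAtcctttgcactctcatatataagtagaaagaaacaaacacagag
Gzmb: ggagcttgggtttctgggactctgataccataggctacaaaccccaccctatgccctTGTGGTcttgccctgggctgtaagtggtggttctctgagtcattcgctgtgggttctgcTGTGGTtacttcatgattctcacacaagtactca
Prf1: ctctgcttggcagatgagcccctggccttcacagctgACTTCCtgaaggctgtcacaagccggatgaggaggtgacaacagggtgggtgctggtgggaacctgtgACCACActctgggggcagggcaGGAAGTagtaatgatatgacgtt
Nkg7: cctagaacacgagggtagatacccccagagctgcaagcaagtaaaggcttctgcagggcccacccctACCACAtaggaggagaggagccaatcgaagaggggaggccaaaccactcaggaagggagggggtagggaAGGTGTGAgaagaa
TGTGGT or its complement was present in each of these 5 windows and in none of the 3 CD3 windows. The T-box match, 14 bases before the start of Nkg7, was the only one in the shown windows. These windows were chosen for display, and the shares over all windows are those given above.

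**Figure D2:**
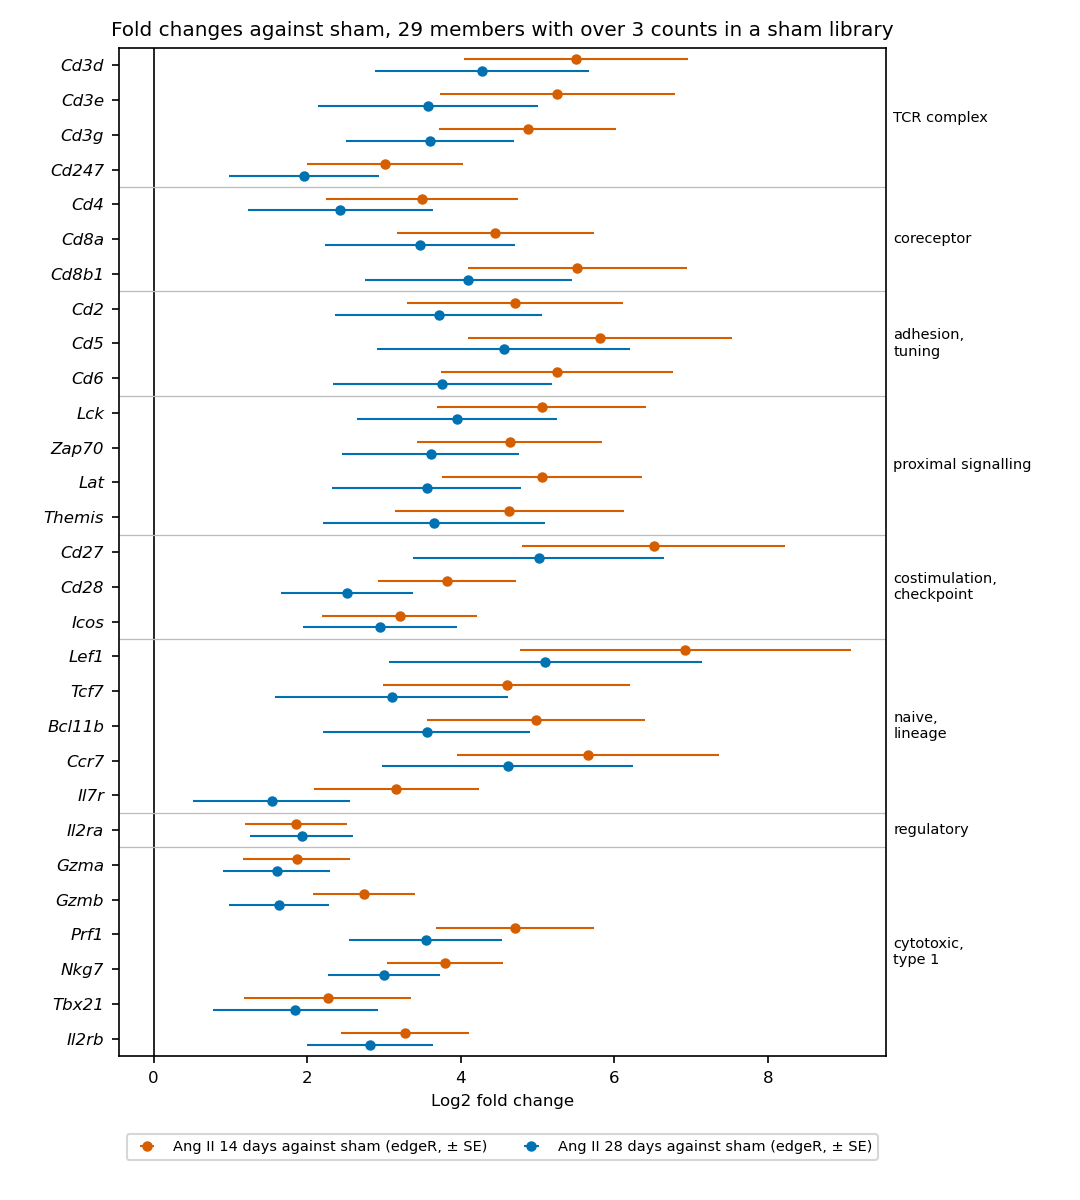
Log2 fold change against sham at 14 and 28 days with its SE (edgeR, 3 libraries per group) for the 29 members with over 3 counts in a sham library. Both points of every row lie above 0; Lef1 and Cd27 are farthest to the right at 14 days, and Gzma and Il2ra are nearest to 0 at that time.

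Levels of different genes were compared per kilobase of exon. In the 14-day group the highest means were Tcf7 at 34.1, Cd8b1 at 30.4, Cd2 at 24.7, Nkg7 at 24.0 and Lck at 20.1 CPM per kb, and the lowest were Pdcd1 at 0.603, Il2ra at 0.743 and Themis at 0.789. The 14-day SD exceeds the mean for Tcf7, Cd8b1, Cd2 and Lck. All genes were measured in the same libraries, so this SD does not tell whether neighbours in the order differ. Cd8b1 lay above Cd2 in each 14-day library, whereas Tcf7 lay below Cd8b1 in 14-day libraries 1 and 2 and above it in library 3. Differences between neighbours were not tested. Within single libraries Nkg7 ranked first of the 34 in sham library 2, in 14-day libraries 1 and 2 and in 28-day libraries 1 and 3. It ranked 6 in 14-day library 3 and 4 in 28-day library 2, where Tcf7 and Cd2 ranked first. Gzmb ranked 2 in 14-day library 1, at 9.12 CPM per kb, and 25 in both 14-day library 3 and 28-day library 2. Lef1 ranked 19 in 14-day library 3 and 32 in the other 14-day libraries.

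Relative to T cell receptor transcripts, cytotoxic and regulatory genes were unevenly spread. The summed counts of Cd3d, Cd3e and Cd3g were 26, 34 and 22 in sham, 152, 408 and 3112 at 14 days, and 69, 902 and 344 at 28 days, and each other member was expressed per 100 of these counts. Gzmb stood at 23.1, 64.7 and 54.5 per 100 in sham, 123, 13.5 and 2.44 at 14 days, and 23.2, 4.32 and 22.1 at 28 days. The 14-day libraries thus lay both above and below sham, with 14-day library 3 lowest of all. Prf1 stood at 36.2 per 100 in 14-day library 1 and between 3.85 and 13.6 in the other 8 libraries. Nkg7 stood at 101 per 100 in 14-day library 1, at 19.0 in 14-day library 3 and between 29.7 and 91.2 elsewhere.

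Lef1, by contrast, was highest per 100 CD3 counts in the libraries with the most T cell transcripts, at 39.6 in 14-day library 3 and 29.7 in 28-day library 2, and stood between 3.85 and 18.2 in the other 7. Ccr7 was at 44.7 and 62.6 in those libraries and between 5.88 and 68.2 in the rest, and Tcf7 at 119 and 105 and between 35.5 and 256 in the rest, so neither stood apart. Foxp3 was at 7.69, 8.82 and 13.6 in sham, 3.29, 3.43 and 5.78 at 14 days and 15.9, 13.3 and 7.85 at 28 days. All 28-day values exceeded all 14-day values, and all sham values did too, although sham rests on 2 to 3 counts.

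Of the 31 members compared in this way, 5 had lower ratios than sham without overlap at 14 days: Cd247, Icos, Cd40lg, Foxp3 and Il2ra. The same held at 28 days for 7: Cd247, Cd4, Cd40lg, Gzma, Gzmb, Tbx21 and Il2rb. For most genes such a drop is built in, since the CD3 counts were higher in Ang II aortas, and 87% of all genes tested were lower without overlap at 14 days and 86.9% at 28 days. Between 28 and 14 days, Cd2 and Foxp3 had higher ratios without overlap and Lat lower ones, against 0.455% and 0.0136% of all genes. These low shares are built in as well, since CD3 counts ran from 152 to 3112 at 14 days and from 69 to 902 at 28 days. The ratio of a gene that does not follow the CD3 chains then overlaps almost always, so the shares are no yardstick for members that do follow them. Each non-overlapping difference has a two-sided exact permutation p of 0.1, the smallest that 3 libraries against 3 can give, and after adjustment over the 31 members these values were 0.62, 0.443 and 0.992 in the 3 comparisons. The ratios do not pass a test.

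**Figure D3:**
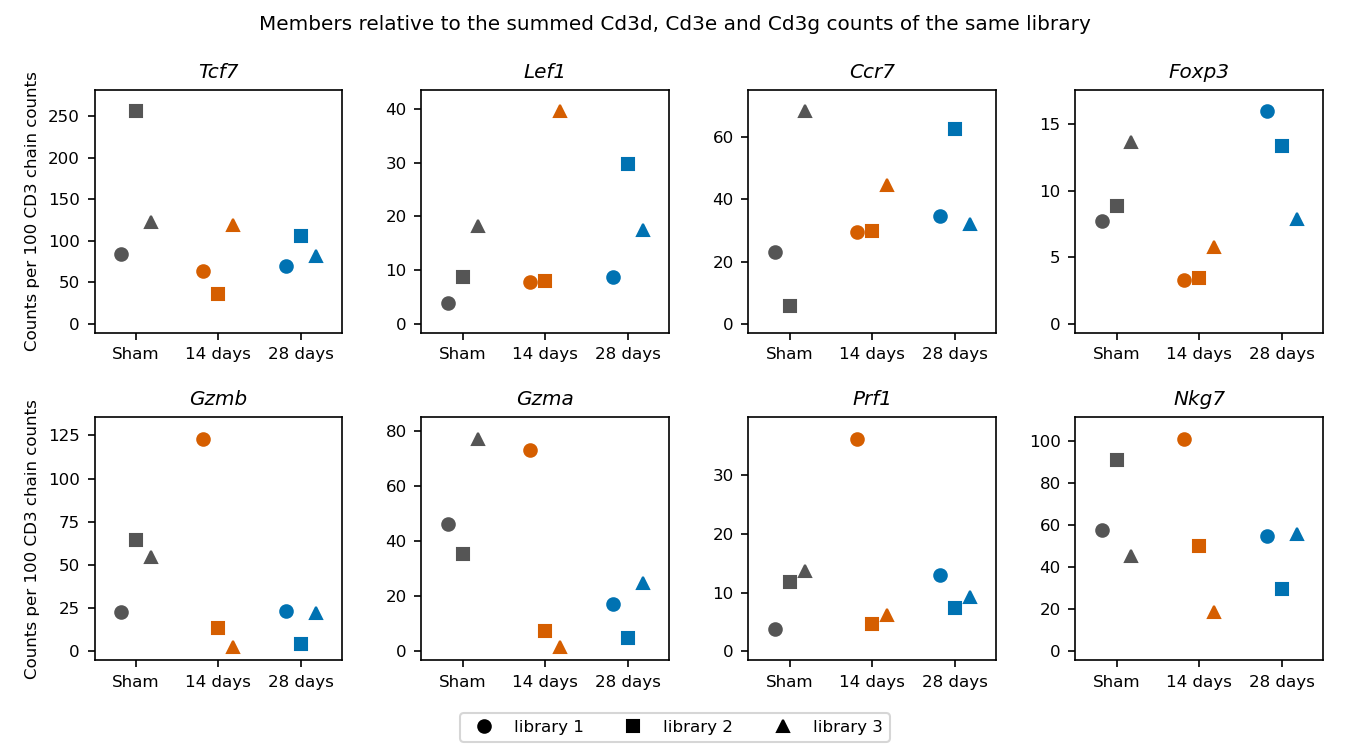
Counts of 8 members per 100 summed Cd3d, Cd3e and Cd3g counts of the same library (linear axes, 1 symbol per library, coloured by group). Gzmb and Prf1 peak in 14-day library 1, at 123 and 36.2, whereas Lef1 peaks in 14-day library 3 at 39.6.

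The make-up of the member counts by role differed between libraries of a group. Cytotoxic and type 1 genes made up 28.5% of member counts in 14-day library 1 (767 of 2689; 95% exact binomial interval 26.8 to 30.3), 14.5% in library 2 and 6.59% in library 3 (1985 of 30125; 6.31 to 6.88). In sham their share was 13.2%, 24.0% and 19.6%, and at 28 days 16.9%, 10.7% and 18.4%, so 14-day libraries 1 and 3 lay above and below all sham libraries. Naive and lineage genes made up 13.5%, 33.0% and 28.3% at 14 days, 19.9% to 35.7% in sham and 20.3% to 25.4% at 28 days. The share of the T cell receptor complex was steadier, from 9.97% to 16.4% over the 9 libraries. Proximal signalling genes made up 6.51% to 11.1% in sham, 10.4% to 15.2% at 14 days and 11.2% to 15% at 28 days.

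**Figure D4:**
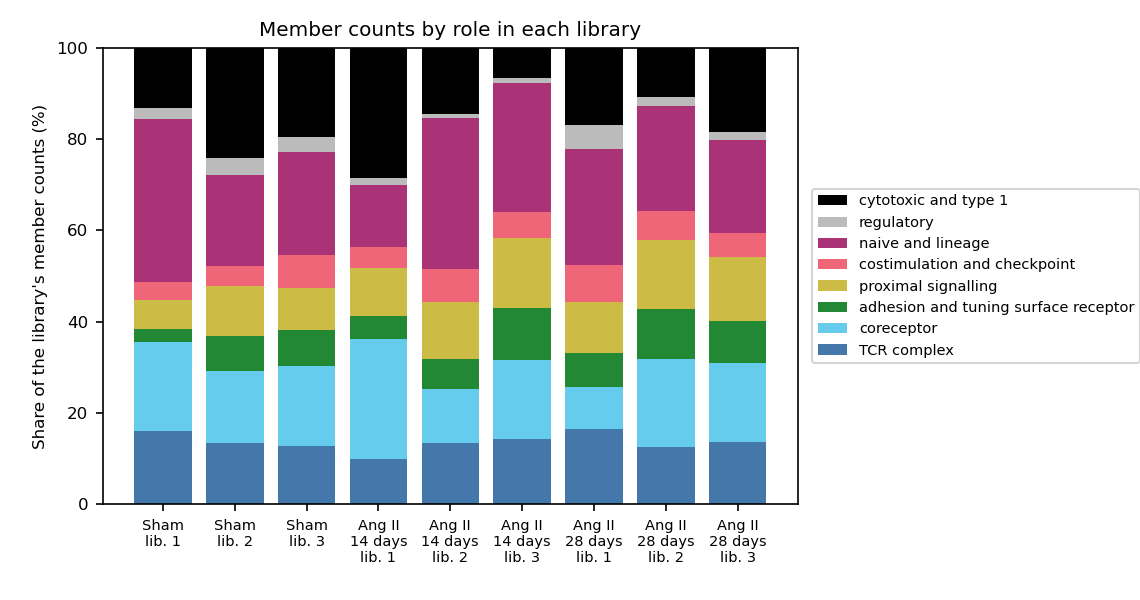
Share of each library's member counts by role (stacked bars to 100%; 414 to 30125 member counts per library). The cytotoxic share at the top of the bars runs from 6.59% in 14-day library 3 to 28.5% in 14-day library 1, and the share of the T cell receptor complex at the bottom stays between 9.97% and 16.4%.

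Between 28 and 14 days no member separated the groups in either direction, where 4.33% of all genes with a count were higher and 4.96% lower without overlap. The median log2 difference of the 33 tested members was -1.06 and 31 were negative. edgeR called 0 members, with a lowest adjusted p of 0.774 and 0 members at an unadjusted p under 0.05, a level that 3.86% of genes passed as higher and 2.27% as lower. DESeq2 called 0 members, 0.608% of genes higher and 0.182% lower. The direction rests on 1 library: without 14-day library 3 the median was 0.89 and 27 of the 33 differences were positive.

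Of 26 further genes of T cell signalling, edgeR called 0 at either time. All 26 had positive log2 differences at 14 days, from 0.07 to 5.63 with a median of 3.61, and 21 lay above sham without overlap (11.1% of all genes with a count). At 28 days the differences ran from 0.14 to 4.40 with a median of 2.79, and 20 lay above sham without overlap (11.1%). Before adjustment 23 at 14 days and 19 at 28 days were higher (13.1% and 7.96% of all genes), and DESeq2 called 19 and 11 higher (8.27% and 4.03%). The most abundant of them was Csk, a kinase that holds Lck in check and is made by many cell types, at 57.4 to 77.7 CPM in sham, 81.1, 201 and 221 CPM at 14 days and, after 28 days, 78.0, 163 and 101 CPM. Ets1, a transcription factor of lymphocytes and endothelium, was at 32.5 to 46.2 CPM in sham, 50.3, 65.3 and 259 CPM at 14 days and, after 28 days, 83.3, 165 and 74.7 CPM.

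Genes of helper subsets were mostly too low to test. Of 20 helper cytokine and subset genes 9 passed the filter, and edgeR called 0. At 14 days 5 of them were higher and 1 lower without overlap, against 11.1% and 11.7% of all genes with a count. Before adjustment 5 were higher and 1 lower (13.1% and 10.4% of genes), and DESeq2 called 5 higher and 1 lower (8.27% and 4.2%). Il13 had 0 counts in all 9 libraries. Cxcr5, the receptor of follicular helper T cells and B cells, was at 0.107 to 0.534 CPM in sham and at 62.7 CPM in 14-day library 3 and 62.1 CPM in 28-day library 2, against 1.73 to 6.0 CPM in the other Ang II libraries. Of 14 genes of naive and recirculating lymphocytes, all 14 were positive at 14 days with a median of 1.95, and 8 lay above sham without overlap (11.1% of all genes with a count), while edgeR called 0, 9 were higher before adjustment (13.1% of genes) and DESeq2 called 8 (8.27%). Among 11 further genes of regulatory cells 10 were tested, 6 were positive and 4 negative at 14 days, and the median was 0.83.

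Of 16 natural killer genes 15 were tested, with median log2 differences of 2.81 at 14 days and 2.21 at 28 days. The 3 sham libraries lay below the Ang II libraries for 15 of them at 14 days and 13 at 28 days, against 11.1% of all genes with a count at each time. edgeR called 0, and before adjustment 14 and 10 were higher (13.1% and 7.96% of genes). DESeq2 called 12 and 7 (8.27% and 4.03%). Klrk1, an activating receptor shared with cytotoxic T cells, was at 1.28 to 1.65 CPM in sham, 9.32, 4.32 and 11.9 CPM at 14 days and, after 28 days, 1.97, 9.17 and 9.49 CPM. The list's most abundant genes, Tyrobp and Fcgr3, are also made by macrophages and peaked in 14-day library 2, at 753 and 577 CPM. Of 16 further effector genes 11 were tested, with a median log2 difference of 3.60 at 14 days, and Gzmd and Gzme had 0 counts in all libraries. Ccl5, a chemokine of effector T cells, was at 4.15 to 6.39 CPM in sham, 29.99, 35.8 and 115 CPM at 14 days and, after 28 days, 9.52, 64.1 and 39.9 CPM. A list of 10 further checkpoint genes had a median of 0.09, with 6 positive and 4 negative. Of 8 thymocyte genes only 3 were tested, with a median of 0.10. The remaining thymocyte genes were too low to test, so that median does not describe the list.

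The sums of B cell genes and of lymph node genes were highest in 14-day library 3 and 28-day library 2, where the member sum was highest. The 11 B cell genes summed to 78.0 to 122 CPM in sham, to 126, 106 and 1867 CPM at 14 days and, after 28 days, to 164, 1457 and 266 CPM, and none of the 11 was at 0 in any library. The 10 genes of lymph node stroma and vessels summed to 169 to 207 CPM in sham, 334, 204 and 829 CPM at 14 days and, after 28 days, 366, 1095 and 437 CPM. Glycam1, a mucin of lymph node venules, was at 0.0715 to 0.426 CPM in sham, 2.52, 0.0720 and 16.4 CPM at 14 days and, after 28 days, 32.2, 248 and 33.0 CPM. It was thus lower in 14-day library 3 than in each 28-day library, unlike the members' sum. In 14-day library 2 the B cell and lymph node sums were within the range of sham, while the members summed to 287 CPM and all 34 lay above every sham library. The B cell sum does not describe each gene in that library. Of the 11 genes, 10 lay above every sham library in all 14-day libraries (11.1% of all genes with a count). The lowest log2 difference of the list was -0.46 at 14 days. The part of lymphoid tissue beside the aorta in the members' levels was not tested.

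**Figure D5:**
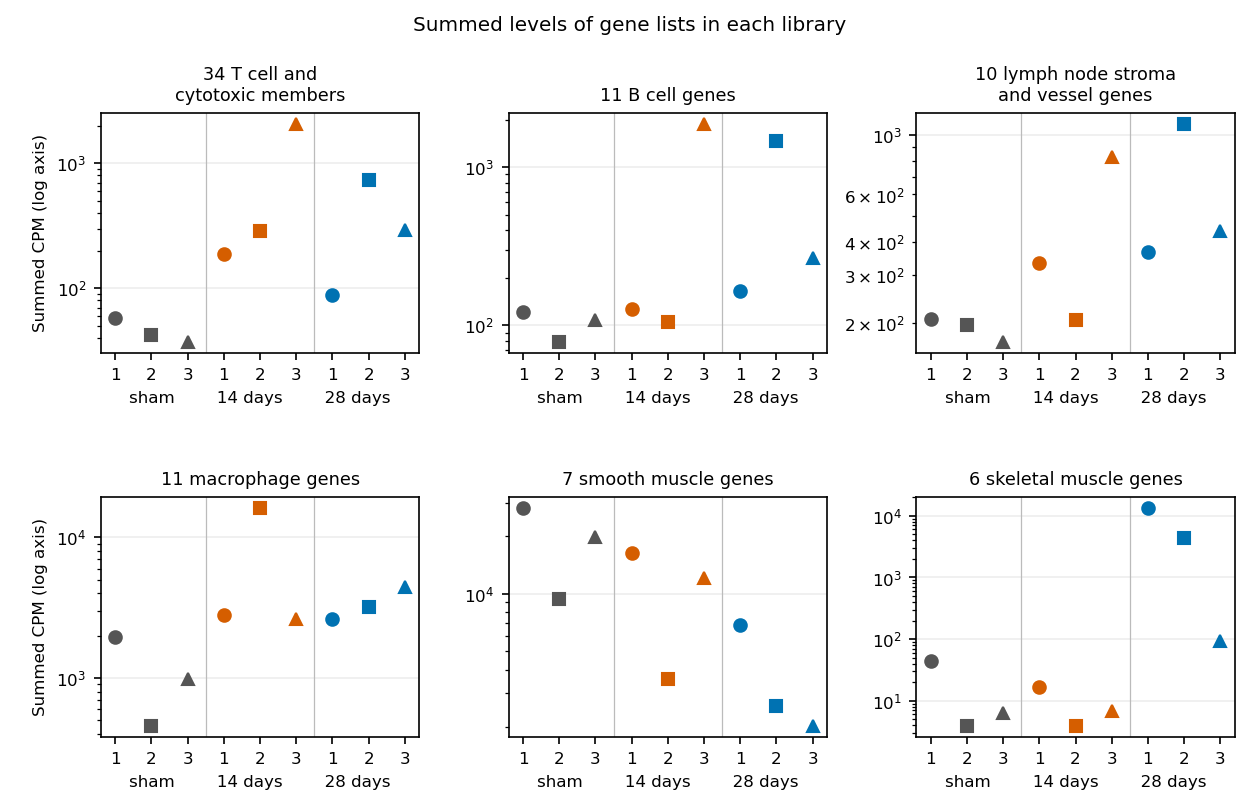
Summed level in CPM (log axes) of the 34 members and of 5 lists of other cell types in each library, 3 libraries per group. Members and B cell genes are both highest in 14-day library 3, at 2045 and 1867 CPM, and the macrophage sum is highest in 14-day library 2, at 16135 CPM.

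The comparison was also made without 14-day library 3 and 28-day library 2, which had the most B cell transcripts. They also had the highest member sums, 2045 and 733 CPM. The 28-day libraries that remain held more B cell transcripts than any sham library (164 and 266 CPM against at most 122 CPM). They also held more lymph node transcripts (366 and 437 CPM against at most 207 CPM). Of the 14-day libraries that remain, library 1 also exceeded sham in both sums (126 and 334 CPM), whereas library 2 did not (106 and 204 CPM). Gene by gene, 10 of the 11 B cell genes were above every sham library in all 14-day libraries, as were 11.1% of all genes with a count. Of the 32 members then tested, 31 at 14 days and 25 at 28 days were higher without overlap, against 15.9% and 15.7% of the genes tested. The median log2 differences were 2.68 and 2.56, and edgeR called 0 members. That both are smaller than over all libraries follows from leaving out the library richest in member transcripts at each time. Between 28 and 14 days the median was then -0.06.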

How the data were processed

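Aortic RNA was sequenced in 9 libraries made with an mRNA kit, per the labels' protocols. The authors deposited 1 table of expected counts per gene and library, per the file headers. The submitters' processing notes name RSEM 1.3.1, HISAT2 2.2.1, Bowtie2 2.4.5 and the build GRCm38.p6; the counting strand is not given in the sources used here. Expected counts share ambiguous reads among genes, and 9.77% to 11.0% of values were not whole, so they were rounded. Symbols were matched for 18775 of 18830 IDs. The design foresaw FPKM for levels between genes; CPM per kb of merged exons (GENCODE M21) was used in its place.

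Counts were filtered with filterByExpr, scaled by TMM and fitted with edgeR 4.0.16 (glmQLFit, robust, R 4.3.3) over all 9 libraries with 1 coefficient per group. Each comparison was adjusted over all 14741 genes tested, with a threshold of 0.05. The SE is the log2 fold change over the square root of F. The common dispersion was 0.263. Ratios to the CD3 chains used counts plus 0.5 and exact permutation tests. DESeq2 1.42.0, RLE scaling, other filters, non-robust fits, a replicate block, fits of 2 groups and each library left out were tried. Scripts were tested on simulated counts. Library numbers are not treated as pairs: deviations of same-numbered libraries correlated between -0.553 and 0.646.

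All 34 members may be named, and of each of the 18 other lists the 4 genes with the highest mean CPM and those at 0 in every library. The members and lists were chosen with earlier results of these data known.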

Additional observations from a re-analysis of the deposited data

How the results depend on the processing

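The absence of edgeR calls among the members held under each edgeR setting tried (RLE scaling, both other filters, non-robust fits, fits of 2 groups, each library left out), and DESeq2 called 30 members at 14 days and 23 at 28 days. All members tested had positive differences from sham under each of these settings. With the replicate block edgeR called 0 members in each comparison and the medians were 4.06, 3.14 and -0.85 for 14 days against sham, 28 days against sham and 28 against 14 days, with a lowest adjusted p of 0.0918; it changed no call. The median against sham ran from 2.75 to 5.03 at 14 days and from 2.57 to 4.01 at 28 days when 1 library was left out, over the members each fit tested; over the 33 members tested with all libraries the upper ends were 5.12 and 4.02. It was 2.75 at 14 days without 14-day library 3 and 2.68 without both that library and 28-day library 2, an alternative chosen after seeing the data. Between 28 and 14 days the median ran from -2.03 to 0.89 when 1 library was left out; of 33 differences 31 were negative with all libraries, 6 without 14-day library 3, and 21 of 32 without both libraries. Members higher at 28 than at 14 days without overlap numbered 0 to 2 when 1 library was left out and 2 without both. Members whose ratio to the CD3 chains did not overlap numbered 5 at 14 days (5 to 11 with 1 library left out), 7 at 28 days (7 to 13) and 3 between the times (3 to 9; 8 without both). Ordering the members by CPM without length kept 8 of the 10 highest at 14 days. Sham levels of 5 members rest on at most 3 counts per library, and their fitted differences are not reported. The planned comparison with deposited FPKM values was not run.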
